A study of Mus musculus with 4 samples.

Results

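The G2 and mitosis genes described here are 30 transcripts that dividing cells build up between DNA replication and cell separation. They were given as a list of gene names, with no threshold on measured values, and each of the 30 had a row in all 4 deposited cell tables, which list 32265 genes. The tables hold transcriptomes of single LSK cells from mouse marrow made with inDrop, a droplet method in which each captured transcript carries a cell barcode and a unique molecular identifier (UMI). The LSK gate takes marrow cells with Sca1 and cKit on their surface and no lineage marker, and the labels name them stem and progenitor cells. All mice were of strain C57BL/6, and wild-type (WT) mice and mice with chronic myeloid leukaemia (CML) were either untreated or given imatinib, which makes 4 groups with 1 library in each. Imatinib, which blocks the BCR-ABL kinase of CML along with KIT and a few others, was given at 400 mg/kg by gavage on alternate days, for 30 days by 1 label and for 4 weeks by another. The allele that drives the leukaemia, the ages and sexes of the mice and how many mice were pooled are not stated in the labels. No difference between libraries therefore has a replicate check, no test between libraries was possible, and every interval below is a 95% interval that covers counting error only.

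In G2 a cell gathers cyclin B bound to Cdk1, the kinase whose activation starts mitosis. The Polo and Aurora kinases then mature the centrosomes and attach chromosomes to the spindle, kinetochores and motors move them, and the anaphase-promoting complex ends mitosis by marking cyclin B and other proteins for destruction. Most genes of the list are transcribed late in the cell cycle, through promoters that commonly carry pairs of CCAAT boxes, bound by the factor NF-Y, and a cell cycle genes homology region (CHR), a core element bound by the DREAM and MuvB complexes. In the marrow, long-term stem cells divide rarely, while granulocytic and erythroid progenitors divide often.

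The list was first read against these promoter elements. RefSeq promoter sequences (build GRCm38.p6, 250 bases before to 50 bases after the start) matched 27 of the 30 genes. Smc4, Aurkb and Tpx2 were not in that table. For 16 of the 27 the first bases after the start lay in a GENCODE vM21 transcript of the same gene. The motifs searched, on both strands, were CCAAT for the NF-Y box and TTTGAA for the CHR, and no match of one overlapped a match of the other in these promoters. CCAAT was found in 20 of the 27 promoters (74.1%), against 37.4% of all 32851 promoters of the table and 37.9% of the 9644 promoters of genes with at least 10 UMIs per 1000000 (CPM) in a library. At least 2 CCAAT matches were in 15 promoters (55.6%), against 11.7% of all promoters. TTTGAA was found in 19 promoters (70.4%), against 17.9% of all promoters and 12.3% of those of the measured genes. Both motifs stood in 16 promoters (59.3%), against 6.95% of all. The list was drawn from genes known to be active in G2 and mitosis, so this is a description of the list and not a test.

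The 8 promoters printed next belong to the members that the comparisons below turn on. Plk1, Aurka, Top2a and Hmgb2 were higher with imatinib than without in Elane-marked cells of both genotypes, and Ube2c, Bub1, Cks2 and Ccnb2 were among the 8 that were lower. Each window runs 5′ to 3′ on the gene's strand, begins at most 120 bases before the RefSeq start, ends before it and leaves out bases in exons of protein-coding genes. Capitals mark CCAAT or TTTGAA, or their reverse complements ATTGG and TTCAAA.
Plk1: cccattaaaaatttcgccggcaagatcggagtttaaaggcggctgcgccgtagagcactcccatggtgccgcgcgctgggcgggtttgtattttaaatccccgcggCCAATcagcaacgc
Aurka: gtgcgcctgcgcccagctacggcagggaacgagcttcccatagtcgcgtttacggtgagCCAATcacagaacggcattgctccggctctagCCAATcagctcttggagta
Top2a: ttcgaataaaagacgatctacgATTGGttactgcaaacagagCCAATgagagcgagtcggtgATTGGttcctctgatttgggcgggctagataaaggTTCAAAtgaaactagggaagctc
Hmgb2: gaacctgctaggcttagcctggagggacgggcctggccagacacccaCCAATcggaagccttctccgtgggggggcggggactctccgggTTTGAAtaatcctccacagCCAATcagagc
Ube2c: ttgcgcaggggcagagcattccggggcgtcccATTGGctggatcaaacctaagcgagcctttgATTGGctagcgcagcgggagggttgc
Bub1: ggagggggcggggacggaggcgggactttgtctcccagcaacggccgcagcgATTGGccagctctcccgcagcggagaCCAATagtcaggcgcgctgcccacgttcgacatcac
Cks2: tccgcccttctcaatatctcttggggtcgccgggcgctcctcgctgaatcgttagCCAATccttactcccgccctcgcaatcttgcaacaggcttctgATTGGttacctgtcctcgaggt
Ccnb2: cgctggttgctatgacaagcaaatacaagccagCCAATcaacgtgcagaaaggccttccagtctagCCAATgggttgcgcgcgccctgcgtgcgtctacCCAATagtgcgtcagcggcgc

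The windows lie at chr7:122159315-122159434 on the plus strand for Plk1, chr2:172370571-172370680 on the minus strand for Aurka, chr11:99024190-99024309 on the minus strand for Top2a and chr8:57511723-57511842 on the plus strand for Hmgb2. Those of Ube2c (chr2:164769809-164769897, plus), Bub1 (chr2:127831866-127831979, minus), Cks2 (chr13:51645112-51645231, plus) and Ccnb2 (chr9:70421555-70421674, minus) follow in the same build. Ccnb2, which encodes cyclin B2, held 3 CCAAT matches spaced 33 and 33 bases apart, and the 2 of Aurka lay 32 bases apart. Top2a and Hmgb2 held both motifs within the printed bases, while Plk1 and Aurka had their TTTGAA after the RefSeq start, outside them. For Plk1, Aurka, Hmgb2 and Ccnb2 the first bases after that start were not found in a GENCODE transcript of the gene. Positions in these 4 promoters therefore hold for the RefSeq start only. No TTTGAA match was in the searched bases of Bub1 or Cks2. Each of the 8 promoters held the NF-Y letters, and the CHR letters were in the 4 higher members and in 2 of the 4 lower ones printed. Of the lower members not printed, Cenpa and Ndc80 held the CHR letters, and Ccnb1 and Nuf2 did not. The printed members were picked by their ratios in these data, and a link between motif and direction was not tested.

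**Figure D1:**
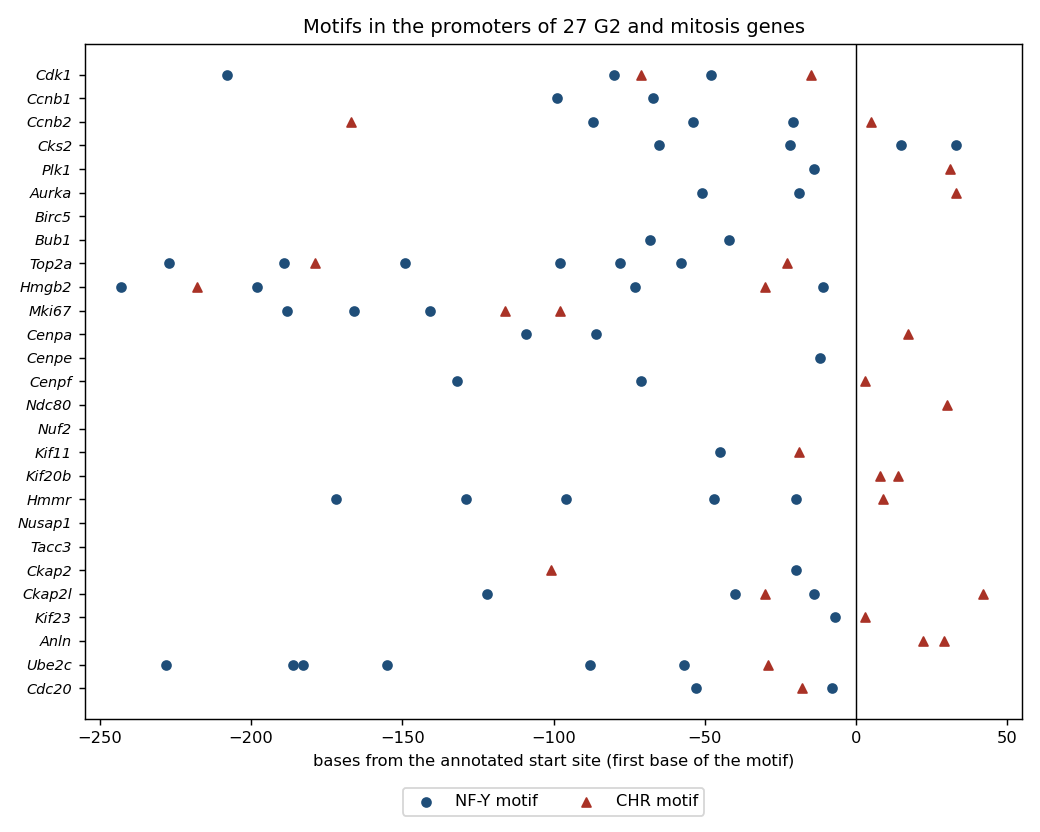
Positions of the NF-Y (CCAAT, circles) and CHR (TTTGAA, triangles) motif letters in the 27 promoters, as bases from the annotated start site (vertical line), one gene per row. Of the 54 circles 34 lie within 100 bases before the start, and of the 27 triangles 20 lie within 50 bases of it, on either side.

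The NF-Y letters clustered just before the start and the CHR letters around it, as the plot of motif positions shows. Of the 54 CCAAT matches, 34 began within 100 bases upstream, 18 began 101 to 250 bases upstream and 2 after the start. Of the 27 TTTGAA matches, 20 began within 50 bases of the start, on either side. The other G2 and mitosis genes of a list of 74 had similar shares, 68.8% for CCAAT and 65.6% for TTTGAA in 64 promoters. The 30 promoters of S phase genes held CCAAT in 66.7% and TTTGAA in 13.3%.

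The libraries differed in depth and in make-up. Cells with at least 500 UMIs, 200 detected genes and at most 20% mitochondrial UMIs were kept, which left 3030 untreated and 4187 imatinib cells of WT and 3032 and 5139 of CML, with 8245224 to 21283108 UMIs per library and medians, in that order, of 3637.5, 1486, 5160.5 and 1198 UMIs per cell. The deposited untreated cells began at 1001 and 1006 UMIs and the imatinib cells at 200, so the lower limit of a deposited cell differed with treatment. Both WT tables shared 1134 cell names, against 80 to 340 names for other pairs of tables. The Xist RNA stood at 2375 CPM in CML untreated cells, against 1.52 to 94.97 CPM elsewhere, and Ddx3y, a Y-linked gene, at 1.504 CPM there against 29.4 to 45.2 CPM elsewhere, so that library stood apart from the others in sex-linked RNA. Elane, the neutrophil elastase of granulocytic progenitors, was at 1189 and 979 CPM in the untreated libraries and at 9462 and 6779 CPM in the imatinib libraries, and Ly6a, which encodes Sca1, was lower there (49.6 and 51.0 CPM against 192 and 95.8). Treatment therefore cannot be told apart from these differences in depth and cell type when whole libraries are compared, nor, where CML untreated cells are 1 side, treatment or genotype from the difference in sex-linked RNA, and fewer cells of a type cannot be told apart from less RNA per cell. For the level of a gene, the UMIs of all kept cells were summed and given per 1000000 UMIs (CPM).

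As a whole the list took up a similar part of each transcriptome. Its 30 genes summed to 4965 CPM (4927 to 5003) in WT untreated, 5810 CPM (5758 to 5863) in WT imatinib, 5057 CPM (5027 to 5087) in CML untreated and 5770 CPM (5722 to 5819) in CML imatinib cells. In CPM both imatinib libraries were above both untreated libraries. That order turned with the TMM scaling described below, where the sums were 5808 in WT untreated, 5710.3 in WT imatinib, 5271 in CML untreated and 4815 in CML imatinib cells. Every member had at least 261 UMIs in each library, and the half-width of a member's Poisson interval was 1.33% to 12.3% of its level. All 30 passed the 10 CPM floor used for the medians of lists, in each comparison.

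**Figure D2:**
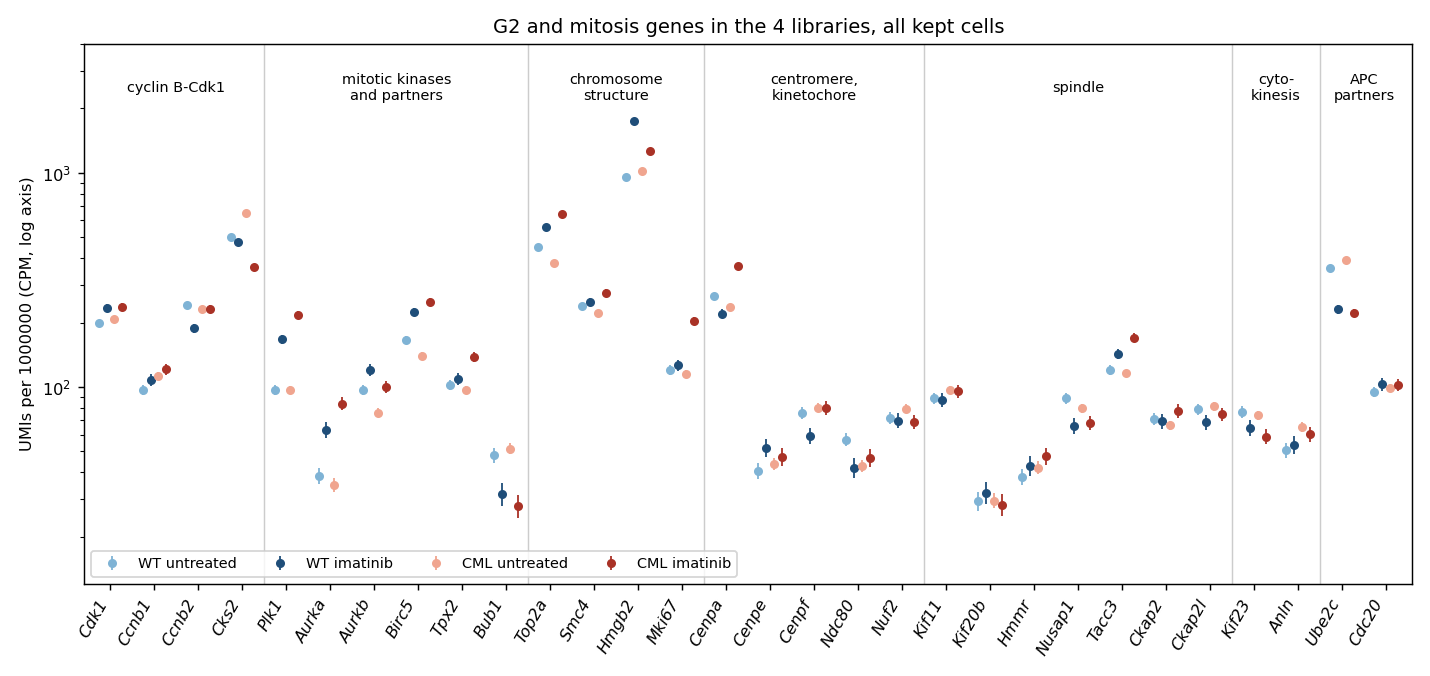
Levels of the 30 genes in UMIs per 1000000 (log axis) in the 4 libraries, grouped by role, with 95% Poisson intervals over UMIs (1 library per group). Plk1, Aurka, Birc5 and Top2a sit higher in both imatinib libraries than in both untreated libraries, and Ube2c sits lower.

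In the cyclin B-Cdk1 group, Cks2 spread most among the libraries, and the kinase and its cyclins less. Cdk1, the mitotic kinase, was at 198 CPM in WT untreated, 234 in WT imatinib, 209 in CML untreated and 237 in CML imatinib cells. Ccnb1, its cyclin B1 subunit, stood at 97.0, 108, 113 and 121 CPM, with libraries in that order here and below. Ccnb2, the cyclin B2 subunit, was at 241, 188, 232 and 231 CPM, lowest in WT imatinib. With the TMM scaling described below it was at 282, 185, 241 and 193, so lower with imatinib in both genotypes. Cks2, a small protein that docks the Cdk1 complex on phosphorylated substrates, was at 501, 473, 652 and 362 CPM. It was thus highest in CML untreated and lowest in CML imatinib cells.

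Among the mitotic kinases and their partners, 5 of the 6 members were higher in CPM in both imatinib libraries than in both untreated ones, and 3 of them (Plk1, Aurka and Birc5) also with the TMM scaling described below. Of all 30 members, 14 lay above in this way and 8 below in CPM, and 4 and 16 with TMM. How many genes outside the list did so was not counted. Plk1, the Polo-like kinase of centrosome maturation and mitotic entry, was at 97.1 CPM in WT untreated, 167 in WT imatinib, 97.0 in CML untreated and 218 in CML imatinib cells. Aurka, the Aurora kinase of spindle poles, was at 38.5, 63.1, 35.0 and 83.6 CPM. The untreated values of these 2 kinases were alike in WT and CML, and the CML imatinib library was highest. Birc5 (survivin), which anchors Aurora B in the chromosomal passenger complex, was at 166, 224, 140.3 and 251 CPM. Tpx2, which activates Aurora A on spindle microtubules, was at 102, 109, 96.5 and 138 CPM. Aurkb, the Aurora kinase of that passenger complex, was at 96.7, 120.4, 75.9 and 100.4 CPM. Bub1, a kinase of the spindle assembly checkpoint, went the other way, at 47.9, 31.7, 51.4 and 27.8 CPM.

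The chromosome structure group held the largest part of the list, 34.3% to 46.3% of its UMIs by library. Hmgb2, a DNA-bending chromatin protein, was at 962 CPM in WT untreated, 1756 in WT imatinib, 1019 in CML untreated and 1263 in CML imatinib cells. Top2a, the topoisomerase that untangles sister chromatids, was at 451, 559, 378 and 645 CPM. Hmgb2 was highest in WT imatinib and Top2a in CML imatinib cells, though with TMM scaling Top2a was highest in WT imatinib. Mki67, which coats mitotic chromosomes and is the Ki-67 antigen, was at 120.1, 126, 115 and 203 CPM and so stood out in CML imatinib cells alone. Smc4, a condensin subunit, was at 239, 249.8, 222 and 275 CPM. In CPM both imatinib libraries lay above both untreated ones for the 4 members of this group, and with TMM scaling for Top2a alone. Here too, genes outside the list were not counted.

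At centromeres and kinetochores, Cenpa was the member with the widest spread. Cenpa, the histone H3 variant of centromeres, was at 267 CPM in WT untreated, 220.0 in WT imatinib, 236 in CML untreated and 369 in CML imatinib cells, so the imatinib library was the lower one in WT and the higher one in CML. Cenpf, a kinetochore and nuclear matrix protein, was at 75.8, 59.2, 80.2 and 79.8 CPM, and Cenpe, a kinetochore motor, at 40.6, 52.0, 43.6 and 47.2 CPM. Ndc80 and Nuf2 form the arm of the complex that binds microtubules. Ndc80 was at 56.8, 42.0, 42.9 and 46.6 CPM, highest in WT untreated, and Nuf2 at 71.6, 69.6, 79.2 and 68.6 CPM.

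The spindle group varied least. Tacc3, which cross-links kinetochore microtubules, had its highest level in CML imatinib cells, with 120.04 CPM in WT untreated, 143 in WT imatinib, 116 in CML untreated and 170.2 in CML imatinib. Nusap1, which bundles spindle microtubules, was lower in both imatinib libraries, at 88.7, 65.9, 79.4 and 68.0 CPM. Kif11, the motor that keeps spindle poles apart, was at 88.7, 86.8, 96.8 and 95.4 CPM. The motor Kif20b (28.2 to 32.0 CPM), the hyaluronan receptor and spindle protein Hmmr (38.1 to 47.6 CPM), and the cytoskeleton-associated proteins Ckap2 (66.2 to 77.3 CPM) and Ckap2l (68.3 to 81.2 CPM) differed little among the libraries. In cytokinesis, Kif23, a motor of the central spindle, was at 76.6, 64.2, 73.8 and 58.7 CPM, and Anln (anillin), a scaffold of the contractile ring, at 50.6, 53.6, 64.9 and 60.1 CPM. Kif23 was lower in both imatinib libraries, and Anln was higher in both CML libraries in CPM, while with TMM scaling it was lowest in CML imatinib.

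The 2 partners of the anaphase-promoting complex differed from each other. Ube2c, the ubiquitin-conjugating enzyme of the complex, was at 359 CPM in WT untreated, 230.3 in WT imatinib, 393 in CML untreated and 221 in CML imatinib cells. Cdc20, the activator that brings substrates to it, was at 94.8, 103, 99.0 and 103 CPM. Ube2c was lower in both imatinib libraries, and the Cdc20 values lay close together.

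The 4 comparisons follow from the groups, and a log2 ratio is given with its exact conditional binomial interval. A call needed a difference of 2-fold or more and, in the library with more of the gene, a level of 50 CPM and 50 UMIs. CPM depends on what else a library holds: scaling by the trimmed mean of M-values (TMM, edgeR), which centres the bulk of genes, lowers every log2 ratio by 0.17 for CML untreated against WT untreated, by 0.32 for CML imatinib against CML untreated, by 0.25 for WT imatinib against WT untreated and by 0.24 for CML imatinib against WT imatinib. TMM was computed for whole libraries and for Elane cells, and not for the other classes of cells.

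CML untreated and WT untreated cells had nearly the same levels of the list. None of the members was called, where 0.915% of the 3824 measured genes were, and 26 of the 30 members had the level needed for a call. The median log2 ratio of the members was 0.00, against 0.03 for all genes of at least 10 CPM. The highest ratios were 0.38 (0.34 to 0.42) for Cks2 and 0.36 (0.23 to 0.50) for Anln, and the lowest were -0.41 (-0.55 to -0.26) for Ndc80 and -0.35 (-0.46 to -0.24) for Aurkb. Of the 8 members whose interval was above 0 and the 7 whose interval was below, Cdk1, Hmgb2, Nuf2, Kif11 and Ube2c turned from higher to lower under TMM. Of all 8916 genes of at least 10 CPM, the interval was above 0 for 2915 and below for 2170. With TMM the median was -0.16.

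Imatinib against untreated was compared in CML and in WT, and these comparisons share no library. In CML, 2 of the 26 members with the level needed were called, both higher, against 17.4% of 4265 genes called in either direction. These were Aurka, with a log2 ratio of 1.26 (1.11 to 1.40), and Plk1, with 1.17 (1.08 to 1.25). Under TMM neither was called any longer, at 0.94 and 0.84, and 3 members were called lower, Bub1 at -1.21, Cks2 at -1.17 and Ube2c at -1.15. In WT none of 27 was called, against 13.03% of 4092 genes, and the same 2 kinases had log2 ratios of 0.71 (0.53 to 0.89) and 0.78 (0.67 to 0.89). The medians of the list were 0.12 in CML and 0.08 in WT, against 0.01 and -0.03 for all genes, and they turned to -0.20 and -0.17 under TMM. By calls, the list was therefore below the background of these libraries in both comparisons.

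Within that shift the members divided into higher and lower ones. In both comparisons the interval was above 0 for 9 members (Cdk1, Ccnb1, Plk1, Aurka, Aurkb, Birc5, Top2a, Hmgb2 and Tacc3) and below 0 for 5 (Cks2, Bub1, Nusap1, Kif23 and Ube2c). In CML alone it was above 0 for 15 and below for 6 of 30 members, against 3862 and 3720 of 9553 genes of at least 10 CPM. In WT alone it was 10 and 10, against 3176 and 3451 of 9196 genes. Members were thus off 0 no more often than all genes, whose count in both comparisons at once was not taken. Cenpa had opposite signs, and for the other 15 the interval held 0 in at least 1 of the comparisons. Plk1, Aurka, Birc5 and Top2a were above 0 with their interval in both comparisons under the main setting and each of 8 alternatives, TMM included, and Ube2c was below 0 under all 9. Under TMM, Cdk1 and Ccnb1 turned to lower in both genotypes, Hmgb2 in CML (-0.01) and Tacc3 in WT, and the members lower in both became 12. Ube2c had log2 ratios of -0.83 (-0.90 to -0.76) in CML and -0.64 (-0.72 to -0.56) in WT, Bub1 of -0.89 (-1.09 to -0.69) and -0.60 (-0.81 to -0.39), and Birc5 of 0.84 (0.76 to 0.92) and 0.44 (0.35 to 0.53).

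The members' log2 ratios spanned a narrower range between CML imatinib and WT imatinib cells than for imatinib against untreated in either genotype. None of the 26 members with the level needed was called, against 2.50% of 3914 genes, and the median log2 ratio was 0.14, against 0.02 for all genes. That median was not smaller than the 0.12 in CML and 0.08 in WT for imatinib against untreated. Cenpa, at 0.75 (0.66 to 0.83), and Mki67, at 0.69 (0.58 to 0.80), were the highest, and Hmgb2, at -0.48 (-0.51 to -0.44), and Cks2, at -0.39 (-0.46 to -0.32), the lowest. Under TMM the median was -0.09, and Ccnb1, Birc5, Top2a, Smc4 and Ckap2 turned from higher to lower.

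The number of members found in single cells also differed between the libraries. For this, cells with at least 1000 UMIs were thinned to 1000 UMIs, which left out 1318 WT imatinib and 2059 CML imatinib cells and no untreated cell. At this depth 42.8% (41.0% to 44.6%) of 3030 WT untreated, 60.4% (58.6% to 62.2%) of 2869 WT imatinib, 47.0% (45.2% to 48.8%) of 3032 CML untreated and 58.2% (56.4% to 59.9%) of 3080 CML imatinib cells held UMIs of at least 3 different members, and are called list-positive below. Without thinning the shares were 66.1%, 77.0%, 74.5% and 73.5%, so the order of the CML libraries turned, with medians of 3637.5, 2134, 5160.5 and 1791 UMIs in these cells. At 1000 UMIs the mean list UMIs per cell were 4.25, 5.78, 4.47 and 5.51, in the same order. Over all cells, the imatinib libraries had more list-positive cells at equal depth in both genotypes. By the marker classes described below, the direction differed. In Elane cells the share was lower with imatinib, at 59.6% against 62.0% in WT, with overlapping intervals, and 56.9% against 68.8% in CML. It was higher in unmarked cells of both genotypes and in Car1 cells of CML.

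Untreated cells lay at both ends of the distribution. No UMI of the list was found in 22.7% of WT untreated and 18.7% of CML untreated cells, but in 7.74% of WT imatinib and 8.12% of CML imatinib cells. At the upper end, 1.65% of WT untreated and 0.956% of CML untreated cells held 12 or more different members, against 0.662% and 0.130% with imatinib. The 10% of cells with most list UMIs held 37.1% and 33.7% of them in the untreated libraries, and 26.7% and 27.2% in the imatinib libraries. With Hmgb2, Smc4 and Cks2 left out, which are also transcribed outside G2, the list-positive shares were 31.2%, 40.9%, 32.7% and 38.5%, in the same order of libraries.

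**Figure D3:**
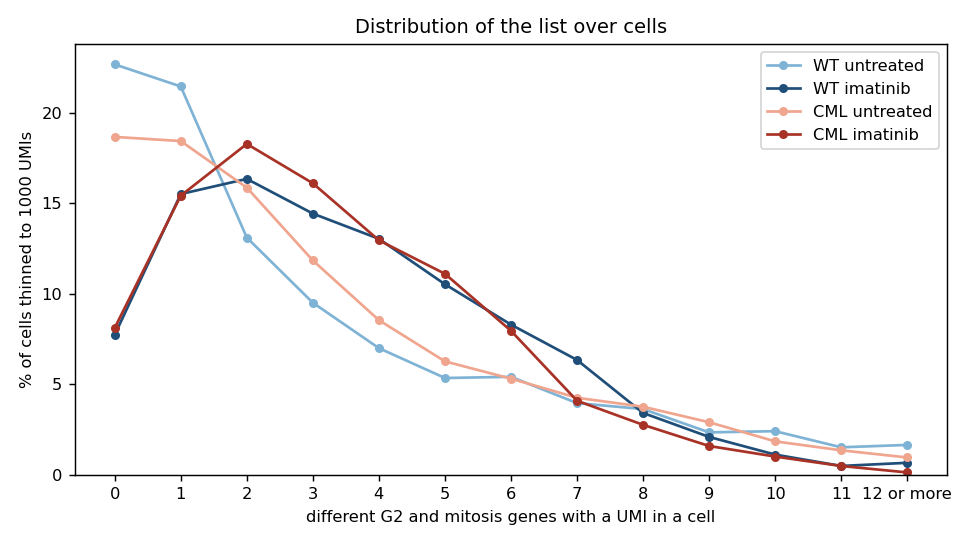
Share of cells by the number of different G2 and mitosis genes with a UMI, each cell thinned to 1000 UMIs, in the 4 libraries. The untreated libraries have their highest point at 0 (22.7% and 18.7%) and the imatinib libraries at 2 genes (16.3% and 18.3%).

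These shares need a background, since free RNA can put list UMIs in cells that do not divide. Cells with at least 5 UMIs of Jchain, a plasma cell gene, were list-positive in 8.42% (3.71% to 15.9%) of 95 WT untreated and 5.0% (0.611% to 16.9%) of 40 CML untreated cells, with medians of 5853 and 5170.5 UMIs. Cells with T cell genes were few, with 31.2% of 16 and 12% of 25 positive at medians of 1394.5 and 2035 UMIs. In the imatinib libraries, cells with at least 2 UMIs of Retnlg, a gene of mature neutrophils, which do not divide, were list-positive in 37.5% (22.7% to 54.2%) of 40 WT and 42.9% (28.8% to 57.8%) of 49 CML cells, with medians of 1476 and 1261 UMIs. Only 6 cells of the WT imatinib library passed the Jchain threshold, and 0 of them were list-positive (0% to 45.9%), with 0.5 list UMIs per 1000 against 0.726 and 0.6 in the untreated Jchain cells. The background thus differed by the kind of cell it was read from, and the part of free RNA in the shares of cells was not tested.

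Cells were then grouped by single marker genes at 1000 UMIs. The classes were cells with at least 1 UMI of Hlf, a stem cell transcription factor, at least 3 of Elane, at least 3 of Ngp, a secondary granule protein of later neutrophil precursors, and at least 2 of Car1, the erythroid carbonic anhydrase. Elane cells made up 8.51% of WT untreated and 9.63% of CML untreated cells, but 75.1% of WT imatinib and 69.9% of CML imatinib cells. Classes of under 50 cells are not described, which leaves Hlf cells only in the untreated libraries and Ngp cells only in CML imatinib. In Elane cells the other 7 of 7 granulocytic markers were at least 2-fold above unmarked cells in each library. In Ngp cells 8 of 8 neutrophil markers were, and in Car1 cells 10 of 10 erythroid markers were in WT untreated, 8 of 10 in CML untreated and 4 of 10 in CML imatinib. Only 4 of 9 other stem cell markers in WT untreated and 1 of 9 in CML untreated were 2-fold higher in Hlf cells, so these are called by their marker only.

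Hlf cells had the lowest share of list-positive cells of the classes described, and Elane and Car1 cells had higher ones. In Hlf cells it was 29.4% (23.4% to 35.9%) of 218 in WT untreated and 26.4% (21.2% to 32.2%) of 261 in CML untreated, and 32.1% and 33.7% of them held no UMI of the list. In Elane cells it was 62.0% (55.8% to 68.0%) of 258 in WT untreated, 59.6% (57.5% to 61.7%) of 2155 in WT imatinib, 68.8% (63.2% to 74.1%) of 292 in CML untreated and 56.9% (54.8% to 59.0%) of 2153 in CML imatinib. In Car1 cells it was 62.7% (52.6% to 72.1%) of 102 in WT untreated, 73.7% (64.8% to 81.4%) of 118 in CML untreated and 81.4% (70.3% to 89.7%) of 70 in CML imatinib. Thus in untreated libraries of both genotypes the intervals of Elane and Hlf cells did not overlap. Unthinned, the shares of Hlf cells were 49.5% and 55.2%, at medians of 2945.5 and 4309 UMIs, those of untreated Elane cells 95.3% and 97.9%, at 7450 and 7923 UMIs, and those of untreated Car1 cells 87.3% and 93.2%, at 5021.5 and 5787 UMIs. Elane and Car1 cells of WT untreated were thus alike at equal depth, and Elane cells were above Car1 cells unthinned in both untreated libraries.

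**Figure D4:**
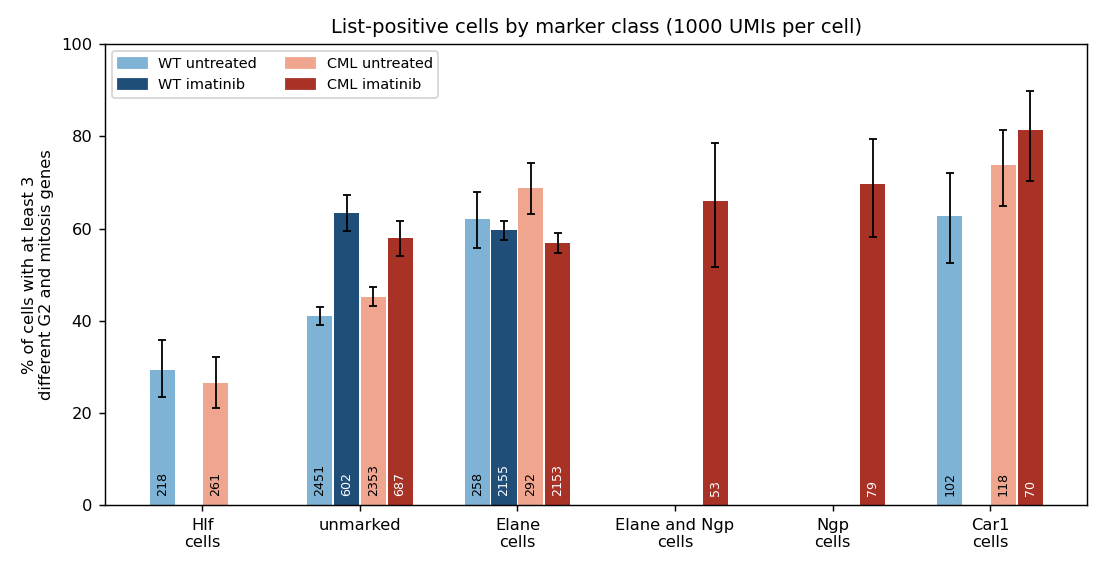
Share of cells with at least 3 different G2 and mitosis genes at 1000 UMIs per cell, by marker class and library, with exact binomial 95% intervals and the number of cells printed in each bar. Classes of under 50 cells are not drawn, and Hlf cells (29.4% and 26.4%) lie lowest.

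Ngp cells of the CML imatinib library were list-positive in 69.6% (58.2% to 79.5%) of 79, and cells with both Elane and Ngp in 66.0% (51.7% to 78.5%) of 53. The Ngp cells had 8.66 list UMIs per 1000, against 5.16 in the Elane cells of that library, and 2.66 S phase UMIs per 1000 against 4.66. Hmgb2 was at 2849.8 CPM in the Ngp cells. Unmarked cells were list-positive in 41.1% (39.2% to 43.1%) of 2451 WT untreated, 63.5% (59.5% to 67.3%) of 602 WT imatinib, 45.2% (43.2% to 47.3%) of 2353 CML untreated and 57.9% (54.1% to 61.7%) of 687 CML imatinib cells. What the unmarked cells held differed by library: 6 plasma cell markers summed to 24259.6 CPM in WT untreated, 8 mast cell and basophil markers to 6692 and 5325 CPM in the imatinib libraries against 195 and 992 in the untreated, and 11 erythroid markers to 7928 CPM in CML imatinib against 265 to 960.5 in the others. The part of this make-up in the shares of unmarked cells was not tested.

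Between the untreated libraries no member was called within any of 4 classes. In Hlf cells none of the 21 members with the level needed was called, against 3.22% of 3539 genes, and the median log2 ratio of CML to WT was 0.03. Ckap2 had the lowest ratio there, -0.95 (-1.47 to -0.43), at 44.4 CPM in CML and 85.7 in WT. In Elane cells none of 28 was called, against 1.31% of 3881 genes, with a median of 0.02, and the lowest ratio was -0.64 (-0.90 to -0.39) for Aurkb. In Car1 cells none of 22 was called, against 4.50% of 3153 genes, with a median of 0.04 and the highest ratio, 0.82 (-0.08 to 1.81), for Kif23. Of the other G2 and mitosis genes, listed below, 5 of 33 were called in these cells, all higher in CML, with a median of 0.19. They were Iqgap3 (2.14), Ttk (1.49), Kif2c (1.30), Kif20a (1.18) and Kif15 (1.01), named after their values were seen, and rest on 7 to 29 UMIs in WT. In unmarked cells none of 26 was called, against 1.02% of 3807 genes, with a median of -0.01.

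Elane cells allow imatinib and untreated to be compared within 1 marked class in both genotypes. The class was not alike across treatment: 9 neutrophil markers summed to 138 CPM in WT untreated and 260.2 in CML untreated Elane cells but to 1883 and 2853 CPM with imatinib, and the median depth fell from 7450 and 7923 to 2364 and 1815 UMIs. Their part in the ratios below was not tested. The list sums of Elane cells were 5467 CPM in WT untreated, 5555 in WT imatinib, 5568 in CML untreated and 5309.6 CPM in CML imatinib, and so differed less than in whole libraries. The median log2 ratio of the list was -0.14 in WT and -0.13 in CML, against 0.00 and -0.01 for all genes, and TMM lowered the ratios by only 0.01 and 0.03. None of 29 members with the level needed was called in CML, against 12.2% of 4022 genes. In WT 1 of 28 was called, Bub1, which was lower, against 7.02% of 3973 genes. These calls moved with how Elane cells were drawn: Bub1 in WT missed the 2-fold limit at a threshold of 6 Elane UMIs (-0.97), at 1 UMI (-0.89) and with a second thinning draw (-0.85), while that draw called Bub1 (-1.14) and Ube2c (-1.06) lower in CML. CML imatinib and WT imatinib Elane cells were alike, with a median of 0.01 and none of 26 called, against 0.571% of 3676 genes.

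In these cells 4 members were higher with imatinib in both genotypes, by their intervals, and 8 were lower. In CML alone the interval was above 0 for 7 and below for 10 of 30 members, against 2708 and 2794 of 8939 genes of at least 10 CPM. In WT alone it was 4 and 9, against 2054 and 2114 of 8732 genes. Members were thus off 0 no more often than all genes, whose count in both genotypes at once was not taken. Plk1 was at 127 CPM in WT untreated, 177 in WT imatinib, 119 in CML untreated and 188 in CML imatinib Elane cells, with log2 ratios of 0.48 (0.27 to 0.68) in WT and 0.66 (0.48 to 0.84) in CML. Hmgb2 was at 1018, 1565, 1152 and 1319 CPM, with 0.62 (0.55 to 0.69) and 0.20 (0.14 to 0.26). Aurka was at 44.9, 63.1, 45.6 and 63.0 CPM, with 0.49 (0.15 to 0.85) and 0.46 (0.17 to 0.77), and Top2a at 471, 517, 344 and 516 CPM, with 0.13 (0.03 to 0.24) and 0.59 (0.48 to 0.69). For these 4 genes each imatinib library lay above the untreated library of its genotype.

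The lower members were Ube2c, Bub1, Cks2, Ccnb1, Ccnb2, Cenpa, Ndc80 and Nuf2. Ube2c was at 389 CPM in WT untreated, 223 in WT imatinib, 406 in CML untreated and 218 in CML imatinib Elane cells, with log2 ratios of -0.80 (-0.93 to -0.67) in WT and -0.90 (-1.02 to -0.78) in CML. Bub1 was at 65.3, 31.6, 58.6 and 30.9 CPM, with -1.05 (-1.38 to -0.71) and -0.93 (-1.25 to -0.60). Cks2 was at 614, 482, 778 and 425 CPM, with -0.35 (-0.45 to -0.25) and -0.87 (-0.96 to -0.79). Both imatinib libraries were below both untreated libraries for these 3 genes. Ccnb2 had ratios of -0.40 (-0.56 to -0.24) in WT and -0.25 (-0.39 to -0.11) in CML, and Ccnb1 of -0.27 (-0.48 to -0.05) and -0.46 (-0.66 to -0.26). No member had intervals of opposite sign, and Cenpa, whose whole-library ratios were opposite, was at 257, 214, 243 and 217 CPM and lower in both.

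**Figure D5:**
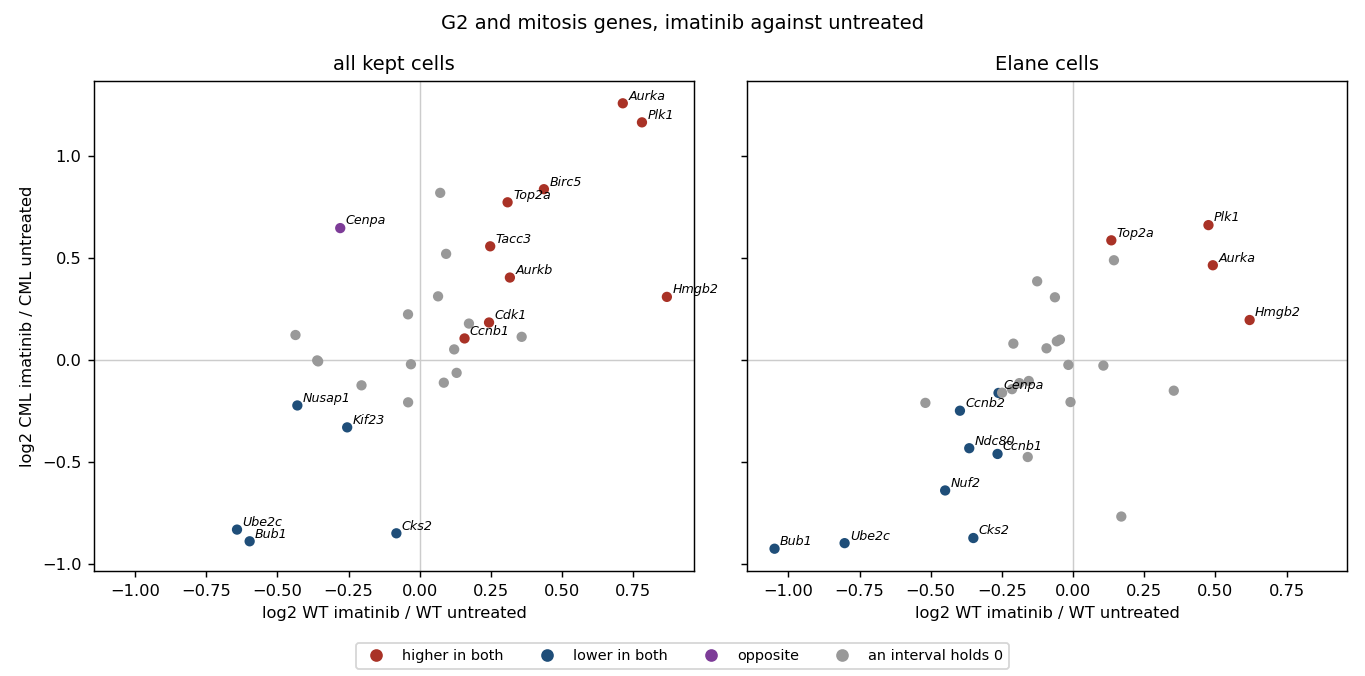
Log2 ratio of imatinib to untreated CPM in WT (horizontal) and CML (vertical) for the 30 genes, over all kept cells (left) and Elane cells (right); colour gives whether the intervals of both ratios exclude 0 on the same side. Plk1, Aurka, Top2a and Hmgb2 lie at upper right in both panels, and Ube2c, Bub1 and Cks2 at lower left.

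How an Elane cell is drawn touches these values. Elane cells held a median of 5.5 and 5 Elane UMIs per 1000 in the untreated and 10 in both imatinib libraries. Cells with at least 2 Car1 UMIs held a median of 0 Elane UMIs in each library, while 35.0% and 34.7% of the Retnlg cells of the WT and CML imatinib libraries reached the threshold of 3. With a threshold of 6 Elane UMIs, 129 WT untreated and 118 CML untreated cells were left, and 3 members were higher (Plk1, Top2a and Hmgb2) and 4 lower (Cks2, Bub1, Nuf2 and Ube2c) in both genotypes. Aurkb and Smc4 then had opposite signs. With every Elane cell given equal weight by thinning, Plk1 alone was higher and Ccnb1, Cks2 and Ube2c were lower by their intervals. Thinning also leaves fewer UMIs and so wider intervals. Of the members whose interval was off 0 before, 17 of 17 in CML and 12 of 13 in WT kept their sign. The exception was Top2a, which turned to -0.05 in WT. Plk1, Cks2 and Ube2c kept their side with their interval in both genotypes under all 6 settings, that of the main result included.

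Car1 cells and unmarked cells of the CML imatinib library stood further from their untreated counterparts. In Car1 cells 5 of 28 members were past 2-fold, against 39.2% of 3921 genes. Birc5 was at 573 CPM against 169 (log2 ratio 1.76, 1.499 to 2.04), Aurka at 108 against 35.8 (1.59), Cenpa at 1096 against 456 (1.27) and Mki67 at 369.6 against 178 (1.05), while Cks2 was at 205 against 1113 (-2.44, -2.70 to -2.20). The median of the members was 0.09, while that of the 37 S phase genes listed below was 0.84, with 18 of 34 called higher and 3 lower, against 0.07 for all genes. In unmarked cells 8 of 28 were, against 25.4% of 4513 genes, with Aurka (1.89), Mki67 (1.54), Plk1 (1.44), Birc5 (1.32), Cenpa (1.27), Top2a (1.24) and Tpx2 (1.002) higher and Cks2 (-1.26) lower. Medians were 0.25 for the members and 0.55 for the S phase genes, of which 9 of 35 were called, all higher, against 0.11 for all genes. In WT unmarked cells 1 of 27 was, Hmgb2, at 2318 CPM with imatinib against 946 without (1.29), against 13.5% of 4188 genes. Between the imatinib libraries, unmarked cells had 4 of 28 past 2-fold, against 14.9% of 4449 genes: Cenpa (1.17), Mki67 (1.06) and Cenpf (1.0003) were higher in CML and Hmgb2 (-1.14) lower. The shares of members were below or near those of all genes, and the erythroid, mast cell and plasma cell markers given above moved with these libraries.

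Other genes of the cell cycle were read beside the list. Of the 74 other G2 and mitosis genes, 4 of 38 with the level needed were called in CML imatinib against CML untreated (10.53%, below the 17.4% of all genes), all higher: Mybl2, a transcription factor of late cell cycle genes (81.7 against 33.8 CPM, log2 ratio 1.27), Cdca3, a trigger of mitotic entry (133 against 63.6, 1.07), the tubulin Tubb4b (441 against 214, 1.05) and the importin Kpna2 (179.8 against 89.2, 1.01). Under TMM none of these 4 was called (0.69 to 0.95), and 4 others were called lower, Kif20a, Ect2, Gas2l3 and Trip13. In WT none of 36 was called, with Kpna2 at 0.94 (0.82 to 1.06) and Cdca3 at 0.69 (0.55 to 0.83). Medians of this list were 0.10 in CML and -0.01 in WT, and -0.22 and -0.27 under TMM. In Elane cells 2 of 40 were called in CML, both lower, Trip13 (-1.04) and the motor Kif20a (-1.003), and none of 41 in WT, where the median was -0.27.

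S phase genes, a list of 37, had medians of 0.21 in CML and -0.10 in WT for imatinib against untreated, and 4 of 34 (11.8%) and 3 of 32 (9.38%) were called, below the 17.4% and 13.03% of all genes. Under TMM the CML median turned to -0.11 and the WT median was -0.36. Dtl, a substrate receptor of a replication-coupled ubiquitin ligase, was lower in both, at 102 against 257 CPM in CML (-1.33, -1.43 to -1.23) and 85.4 against 210.1 in WT (-1.30, -1.42 to -1.18). Ccne1, cyclin E1 of the G1 to S step, was at 120.02 against 29.3 CPM in CML (2.03, 1.89 to 2.18) and Pcna, the replication clamp, at 280.3 against 136 in WT (1.04, 0.95 to 1.13). Under TMM Ccne1 (1.71) was still called and Pcna (0.79) was not. Chaf1a, of the chromatin assembly factor, was higher in both, with 1.33 in CML and 0.96 in WT. Dtl was also lower in Elane cells of both genotypes, at -1.18 (-1.38 to -0.98) in CML and -1.34 (-1.54 to -1.14) in WT.

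List-positive cells also held more of the other late cell cycle genes. At 1000 UMIs per cell they had 8.67 UMIs of the 74 other G2 and mitosis genes in WT untreated, 7.58 in WT imatinib, 8.34 in CML untreated and 7.52 in CML imatinib, and the other cells 2.31, 3.37, 2.51 and 3.85. In these libraries 70 of 72, 45 of 67, 62 of 67 and 34 of 71 such genes with at least 50 UMIs were at least 2-fold higher in list-positive cells, where 2.72%, 1.56%, 2.41% and 1.78% of all genes were. Of the 37 S phase genes 6, 0, 4 and 1 were 2-fold higher. Kif20a, a motor of the central spindle named after its values were seen, had log2 ratios of 3.17, 2.85, 3.44 and 2.21. The contrast was therefore smaller in both imatinib libraries, and the positive cells, chosen by the members, were deeper before thinning (4689.5 against 3078 UMIs, 2258 against 1950, 6411 against 4236.5, and 1861 against 1711).

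The members were found together in cells of each library. Cells with a UMI of a given member held at least 3 other members more often than cells without it, for 30 of 30 members in each library. The ratio of these shares had a median over members of 2.21 in WT untreated, 1.44 in WT imatinib, 1.86 in CML untreated and 1.43 in CML imatinib. It was highest for Hmgb2 in WT untreated (2.82) and WT imatinib (2.06), for Ube2c in CML untreated (2.29) and for Ckap2l in CML imatinib (1.56), and lowest for Kif20b (1.72), Smc4 (1.24), Smc4 (1.46) and Ndc80 (1.16). A member was seen in a median of 6.62%, 8.16%, 6.53% and 8.02% of cells at this depth. The ratio has a ceiling that falls as more of the cells without the member hold at least 3 others. For Cdk1, as an example, the shares with and without it were 78.0% and 36.4% in WT untreated, and 77.2% and 54.8% in WT imatinib. Higher ratios in the untreated libraries therefore do not by themselves show closer co-detection. The ratios share cells and depth, were not computed for genes outside the list, and are given as a description.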

How the data were processed

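Single-cell RNA libraries of sorted mouse bone marrow LSK cells were read from 4 tables of genes by cells, 1 per group. The deposited values are a normalized signal that the authors made, per cell, with every cell of a table summing to about 2839.18. Partek 8.0, Bowtie 1.1.1 and the build GRCm38 (mm10) are named, per the submitters' processing notes, with no role stated for any of them. Dividing a cell's values by its smallest value gave UMI counts back. They were whole for 100% of entries, within 0.02 or, for large counts, within a small fraction of the count. Headers list 1 name beyond the number of value columns, and cells were identified by their column.

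The members, the other gene lists and the marker classes were chosen with earlier results of these data known. Named genes are the 4 members at each end of the log2 ratios with at least 50 UMIs in the higher library, at least 1 member per role, and the 4 other G2 and mitosis and 4 S phase genes with the largest ratios and at least 50 CPM; here every member was named. Cells were kept by 500 UMIs, 200 genes and 20% mitochondrial UMIs, and doublets were not removed. Libraries of 8245224 to 21283108 UMIs were summed to CPM and compared by log2 ratios with exact conditional binomial 95% intervals. Levels have exact Poisson and shares exact binomial (Clopper-Pearson) intervals. Thinning used 1 seeded draw. Python 3.11.15, numpy 2.4.6, scipy 1.17.1, pandas 2.3.3 and, for TMM, edgeR 4.0.16 in R 4.3.3 were used, and the scripts were tested on simulated data. Coordinates came from GENCODE vM21 and promoters from RefSeq (GRCm38.p6). Alternatives are given in the closing section.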

Additional observations from a re-analysis of the deposited data

Results flagged for a closer look

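Cenpa was flagged because its ratio of imatinib to untreated went up in CML and down in WT over all kept cells. The log2 ratios were 0.65 (0.58 to 0.71) in CML and -0.28 (-0.36 to -0.20) in WT, a difference of 0.926, or 0.93 on the log2 scale. The difference was not tested, since each group has 1 library. The opposite signs also appeared under TMM scaling (0.33 and -0.53) and without the 5% of cells with most UMIs (0.18 and -0.29). With cells thinned to 1000 UMIs the ratios were 0.19 and -0.145, and Cenpa was no longer among the members whose intervals lay on opposite sides of 0. In Elane cells the ratios were -0.16 and -0.26, so the signs were alike there. Cenpa was at 1096 CPM in Car1 cells of the CML imatinib library, and erythroid markers summed to 7928 CPM in its unmarked cells; their part in the difference was not tested.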

How the results depend on the processing

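No paired analysis was possible because each group has 1 library. The median log2 ratio of the list stayed within the counting error of its main value under 29 of 35 alternatives. TMM scaling moved it to -0.162 for CML untreated against WT untreated, -0.203 (reversed) for CML imatinib against CML untreated, -0.173 for WT imatinib against WT untreated and -0.0918 (reversed) for CML imatinib against WT imatinib. Thinning each cell to 1000 UMIs before summing moved it to 0.259 in CML and 0.339 in WT for imatinib against untreated. In Elane cells it was unchanged by this yardstick under the 20 alternatives. For CML imatinib against CML untreated, though, it went from -0.128 to -0.304 with thinning and to -0.052 at 6 Elane UMIs. These 20 alternatives were chosen after seeing the data, as was leaving out cells whose names occur in both WT libraries.

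Shares of list-positive cells, with WT before CML and untreated before imatinib, became 27.7%, 35.4%, 28.5% and 30.4% at 500 UMIs, 55.9%, 76.8%, 62.9% and 76.5% with 2 members, 26.3%, 32.9%, 26.6% and 29.1% with 5 members, 31.2%, 40.9%, 32.7% and 38.5% without Hmgb2, Smc4 and Cks2, and 66.1%, 77.0%, 74.5% and 73.5% unthinned. Both imatinib shares were above both untreated ones except unthinned. The other 14 of these 34 values stayed within counting error. By class, leaving out those 3 genes gave 19.7% and 19.5% in untreated Hlf cells of WT and CML, 43.4%, 39.7%, 50.3% and 36.4% in Elane cells, 50% and 52.5% in untreated Car1 cells, and 41.5% in Elane and Ngp cells. Stricter marker thresholds gave 57.5% and 54.4% in imatinib Elane cells. The other 19 of 30 class values stayed within counting error. The shares rise with depth and hold for the depth named with them, and with 1 library per group the spread between mice is unknown.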
